A study of Homo sapiens with 6 samples.

Results

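Cyclins are regulatory subunits that switch on cyclin-dependent kinases (CDKs), and the genes of both families were followed in A375, an established human malignant melanoma cell line, after exposure to the histone deacetylase inhibitor panobinostat. The members were the 46 genes of 25343 in the table of counts whose symbol named a cyclin of types A to O, T or Y or a numbered CDK, CDK inhibitors not included. They comprised 25 cyclins and 21 kinases. By textbook role 16 were grouped as cell cycle members, 15 as transcriptional members and 15 as other members.

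Parental A375 cells received 50 nM panobinostat or the same volume of PBS (vehicle) for 24 h, and bulk RNA of 3 libraries per group was sequenced. Both groups were the same unmodified line, detached with Versene before RNA was taken. Nothing in the labels tells whether the replicates were separate cultures. The p-values below therefore speak only to variation among these 6 libraries, part or all of which may be technical. Library totals ran from 32293283 to 38944399 counts. Of the melanoma markers, MITF, SOX10, S100B and PAX3 were present in each group, whereas MLANA and TYR had 0 counts in all 6 libraries. PMEL was at 0.628 CPM (counts scaled to library size) in vehicle and 194 CPM with panobinostat. MITF, SOX10, S100B and PAX3 fell and PMEL rose, these being the 5 of 8 melanoma markers tested. The 8 melanoma markers summed to 898 to 1008 CPM in vehicle and 588 to 649 CPM with panobinostat. The 7 markers of other cell types summed to 0.174 to 0.285 CPM in vehicle and 3.62 to 4.16 CPM with panobinostat, and both that were tested (EPCAM and PECAM1) rose. In vehicle EPCAM had 3, 2 and 2 counts and PECAM1 1, 3 and 7. Both entered the test only through the treated libraries and so had to differ. PTPRC and CDH1 were at 0 in vehicle. The part of these markers in the results below was not tested.

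In a dividing cell, D-type cyclins with CDK4 and CDK6, and then cyclin E with CDK2, phosphorylate the retinoblastoma protein and open the way to DNA replication, while cyclins A and B with CDK1 carry the cell through G2 and mitosis. A second branch of the family acts on transcription. CDK7 with cyclin H belongs to the general factor TFIIH, CDK9 with cyclin T forms the elongation factor P-TEFb, CDK8 or CDK19 with cyclin C forms the kinase module of Mediator, and CDK12 and CDK13 work with cyclin K on the elongating polymerase.

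Panobinostat lowered most cell cycle members and moved the transcriptional members by small amounts in both directions. Of 44 members tested, 41 passed edgeR's quasi-likelihood test at a Benjamini-Hochberg adjusted p under 0.05, 15 as rises and 26 as falls. Among all 15499 genes tested 82.8% passed, 41.8% as rises and 41.0% as falls, so passing the test does not by itself set a member apart. Of 15 tested cell cycle members 11 fell and 3 rose, with a median log2 fold change of -1.11. Of 15 transcriptional members 6 fell and 8 rose, with a median of 0.19. Of 14 tested other members 9 fell and 4 rose, with a median of -0.20. The median over all genes tested was 0.01. CCND2 and CDK15, among the rises, entered the test only through the treated libraries and so had to differ. Without them 13 of 42 members rose, with 2 of 14 in the cell cycle class and 3 of 13 in the other class. The class medians were then -1.19 for cell cycle members and -0.23 for other members.

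The classes differed more in size than in the share that passed. At least 2-fold falls were found for 8 of 15 cell cycle members, 2 of 14 other members and 0 of 15 transcriptional members by edgeR, against 11.7% of all genes tested. At least 2-fold rises were found for 3 cell cycle members, 1 other member and 0 transcriptional members by edgeR, with 18.9% of all genes as the background. CCND2 and CDK15, which are among these 4, passed the low-count filter only through the treated libraries and so had to differ. Without them 2 of 14 cell cycle members and 0 of 13 other members rose at least 2-fold. Transcriptional members spanned log2 fold changes of -0.58 to 0.77, whereas cell cycle members reached -2.99 on the lower side. The median size of the log2 change, without its sign, was 1.46 in cell cycle members, 0.38 in transcriptional members and 0.60 over all genes tested. No test of the difference between the classes was made. For 41 of the 44 members no treated library reached the vehicle range, against 83.4% of all genes. CCND2 and CDK15, which had to differ, are among these 41.

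**Figure D1:**
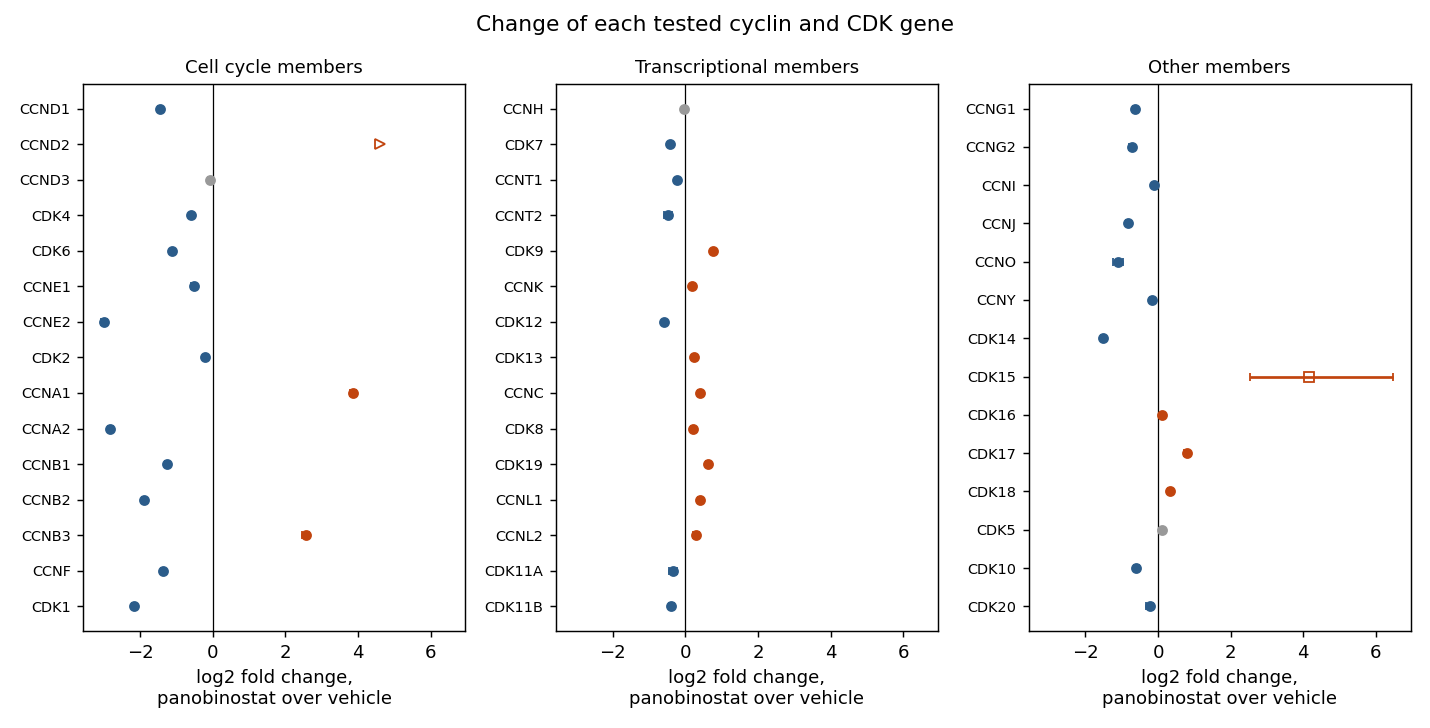
Log2 fold change of each tested member, panobinostat over vehicle, in 3 panels by class. Circles with bars show the edgeR value ± SE (blue lower, red higher, grey not past the threshold), the open triangle for CCND2 is a lower bound against a floor of 3 counts per vehicle library, and the open square for CDK15 is a count ratio with its 95% counting interval. Transcriptional members lie between -0.58 and 0.77, and 8 cell cycle members lie at -1 or below.

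As a sum, the cell cycle members took 2224 to 2270 CPM in the vehicle libraries and 999.9 to 1029 CPM in the panobinostat libraries. CCND1 and CDK6 were its largest parts, with means of 591 and 527 CPM in vehicle and 215 and 244 CPM with panobinostat. The transcriptional members took 979 to 1012 CPM in vehicle and 1001 to 1033 CPM with panobinostat, ranges that overlapped. Other members took 1082 to 1097 CPM and 910.0 to 927 CPM. In bulk RNA, fewer cells in a phase of the cycle and less RNA of these genes per cell cannot be told apart.

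**Figure D2:**
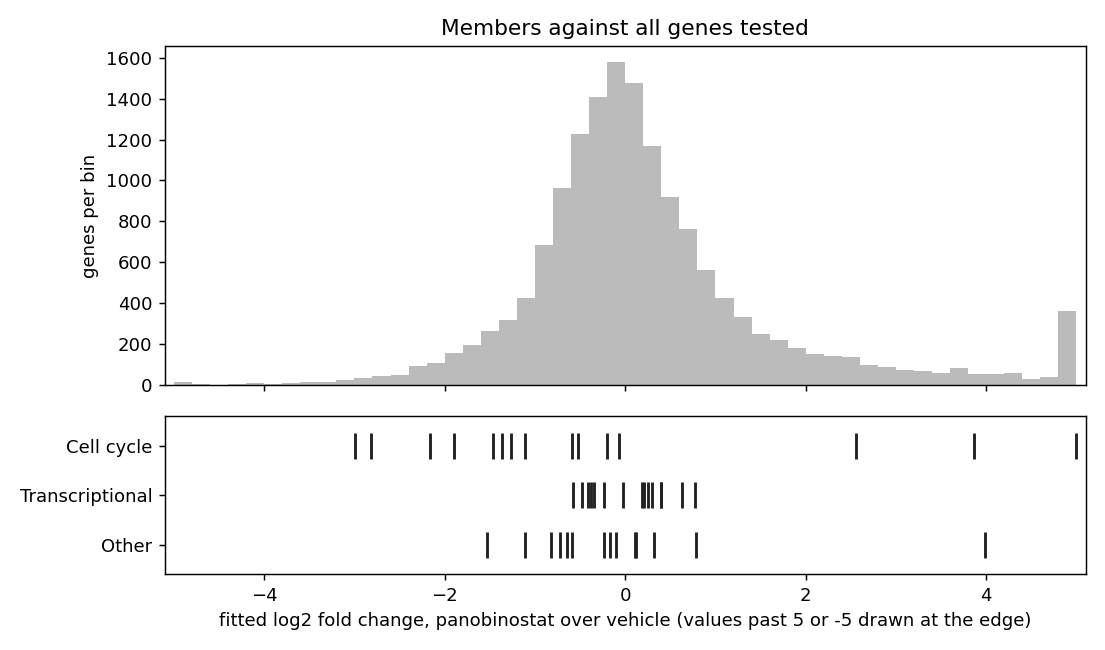
Fitted log2 fold changes of all 15499 genes tested (upper panel, genes per bin) and of the members by class (lower panel, 1 tick per gene), with values past 5 in size drawn at the edge. Transcriptional ticks crowd around 0, and cell cycle ticks spread to both tails. The cell cycle tick at the right edge is CCND2, whose fitted value rests on 0 counts in each vehicle library.

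Among the D-type cyclins, which link growth signals to the start of the cycle, the 3 paralogs took 3 different courses. CCND1 (cyclin D1) was measured at 601, 596 and 577 CPM in vehicle replicates 1, 2 and 3 and at 215, 205 and 224 CPM with panobinostat. It fell 2.75-fold, a log2 change of -1.46 ± 0.04 (SE, edgeR adjusted p = 1.38e-15), and every treated library lay below every vehicle library. CCND3 (cyclin D3) was 30.7, 28.9 and 25.7 CPM in vehicle and 26.5, 25.8 and 29.3 CPM with panobinostat. Its groups overlapped and the difference did not pass (log2 difference -0.07 ± 0.07), the value turning to 0.053 with upper quartile scaling and 0.027 with only genes at 5 CPM or more tested, and passing as a fall without vehicle replicate 3 (-0.15). CCND2 (cyclin D2) had 0 counts in each vehicle library and 81, 59 and 66 counts with panobinostat. Against a floor of 3 counts per vehicle library it was at least 24.3-fold higher, reaching 1.96 ± 0.32 CPM (SD, n = 3). CCND2 entered the test only through the treated libraries, so it had to differ.

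Per kilobase of exon in the GENCODE 29 annotation, which may not be the one used for counting, the level of CCND1 was 134 CPM in vehicle and 48.8 CPM after treatment. On that per-length scale CCND3 had 7.21 and 6.89 CPM and CCND2 0 and 0.303 CPM. CCND1 therefore had the highest per-length level of the 3 in both groups. Within a library, the ratio of CCND3 to CCND1 counts was 0.0511, 0.0485 and 0.0446 in vehicle and 0.123, 0.126 and 0.131 with panobinostat. This ratio uses no scaling factor, and its groups did not overlap.

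The G1 kinases that D-type cyclins activate fell as well. CDK6 was 503.4, 539 and 539 CPM in vehicle and 262, 244 and 227 CPM with panobinostat, a 2.16-fold fall (log2 change -1.11 ± 0.05, edgeR adjusted p = 3.14e-12). CDK4 was 245, 246 and 233 CPM in vehicle and 160, 151 and 170 CPM with panobinostat, a 1.51-fold fall (log2 change -0.59 ± 0.04). The CDK6 to CDK4 count ratio was 2.05 to 2.31 in vehicle and 1.33 to 1.64 with panobinostat, without overlap. Exons of CDK4 share 51.9% of their length with TSPAN31 on the opposite strand in the annotation, and whether reads were counted by strand is not stated in the labels or the table. The count of TSPAN31 rose, by 0.31 on the log2 scale.

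Cyclins E1 and E2, partners of CDK2 at the entry to S phase, fell to different extents. CCNE2 was 33.5, 35.4 and 38.3 CPM in vehicle and 4.67, 4.95 and 3.80 CPM with panobinostat. Its 7.95-fold fall, a log2 change of -2.99 ± 0.09 (edgeR adjusted p = 3.81e-15), was the largest among the members tested. CCNE1 was 15.5, 14.2 and 13.4 CPM in vehicle and 10.6, 9.87 and 9.44 CPM with panobinostat, a 1.44-fold fall (log2 change -0.53 ± 0.08). In raw counts CCNE2 exceeded CCNE1 2.16 to 2.85 times in vehicle, and the ratio was 0.403 to 0.501 with panobinostat. Exons of CCNE2 share 47.5% of their length with INTS8 on the opposite strand, whose own count rose by 0.11 on the log2 scale.

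The kinase of that step moved little. CDK2 was 113, 112 and 113 CPM in vehicle and 95.2, 97.4 and 101 CPM with panobinostat. The log2 change of -0.20 ± 0.04 passed (edgeR adjusted p = 0.000199) and no longer did with upper quartile scaling (-0.080). CDK3, a kinase of the exit from quiescence, had 0 counts in all 6 libraries. In the annotation 90.9% of its exonic length is shared with the readthrough gene TEN1-CDK3, which had 7 counts in vehicle and 9 with panobinostat over 3 libraries each. How reads in shared exons were counted is not stated there either.

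**Figure D3:**
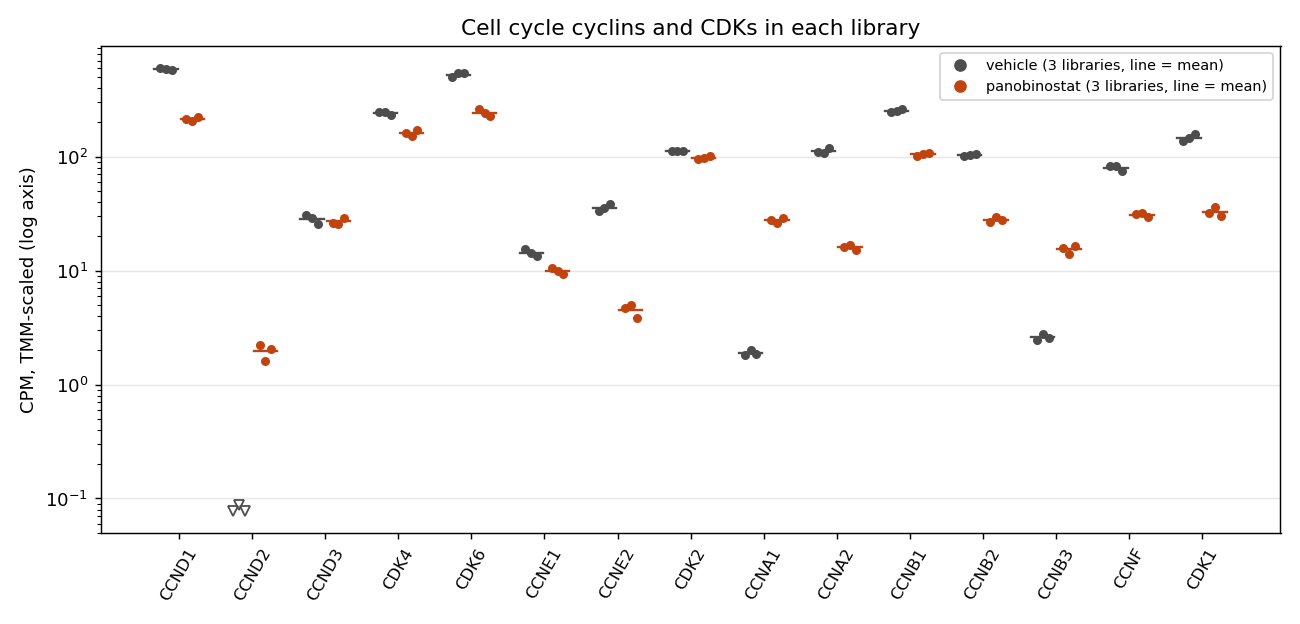
Level of each tested cell cycle member in every library (CPM, log axis), vehicle in grey and panobinostat in red, with lines at the group means of 3 libraries. Open triangles mark 3 counts for CCND2 in the vehicle libraries, where it had 0 counts. CCNA1, CCNB3 and CCND2 are higher with panobinostat, CCND3 overlaps, and the other 11 are lower.

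The cyclins of S, G2 and mitosis and their kinase fell together, apart from the A1 and B3 paralogs. CCNA2 (cyclin A2), needed for replication and mitotic entry, was 110, 108 and 120 CPM in vehicle and 16.1, 16.9 and 15.1 CPM with panobinostat. It fell 7.03-fold (log2 change -2.81 ± 0.06, edgeR adjusted p = 5.24e-17). CDK1, the main mitotic kinase, was 137, 147 and 157 CPM in vehicle and 32.3, 36.1 and 30.0 CPM with panobinostat, a 4.48-fold fall (log2 change -2.16 ± 0.07). The groups stood well apart for both genes.

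Mitotic cyclins B1 and B2 fell unequally. CCNB2 went from 102, 104 and 106 CPM to 26.5, 29.8 and 27.9 CPM, a 3.71-fold fall. CCNB1 went from 245, 251 and 265 CPM to 102, 106 and 108 CPM, a 2.41-fold fall. The CCNB2 to CCNB1 count ratio was 0.400 to 0.417 in vehicle and 0.258 to 0.281 with panobinostat, without overlap. CCNF (cyclin F), an F-box protein that directs proteins to degradation and does not activate a CDK, went from 83.5, 82.3 and 74.6 CPM to 31.4, 32.3 and 29.5 CPM, a 2.58-fold fall. Per kilobase of exon the level of CCNB1 was 117 CPM in vehicle and 48.6 CPM after treatment, above CCNB2 at 38.7 and 10.4 CPM.

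CCNA1 and CCNB3, paralogs best known from the germ line, rose while CCNA2 and CCNB1 fell. CCNA1 was 1.83, 2.0 and 1.87 CPM in vehicle and 27.6, 26.2 and 29.1 CPM with panobinostat, a 14.5-fold rise (log2 change 3.86 ± 0.09, edgeR adjusted p = 1.65e-16). CCNB3 was 2.45, 2.78 and 2.59 CPM in vehicle and 15.7, 13.9 and 16.5 CPM with panobinostat, a 5.90-fold rise (log2 change 2.56 ± 0.10, edgeR adjusted p = 1.32e-13). No library of one group reached the range of the other for either gene.

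Set against its paralog, CCNA1 had 0.0155 to 0.0184 counts per CCNA2 count in vehicle and 1.54 to 1.93 with panobinostat. CCNA1 thus passed CCNA2 in counts in each treated library. Per kilobase of exon CCNA1 stood at 11.5 ± 0.61 CPM and CCNA2 at 5.73 ± 0.33 CPM (SD, n = 3) with panobinostat, against 0.791 and 40.3 CPM in vehicle. CCNB3 had 0.00977 to 0.0111 counts per CCNB1 count in vehicle and 0.132 to 0.154 with panobinostat, so CCNB1 remained the more abundant by count.

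**Figure D4:**
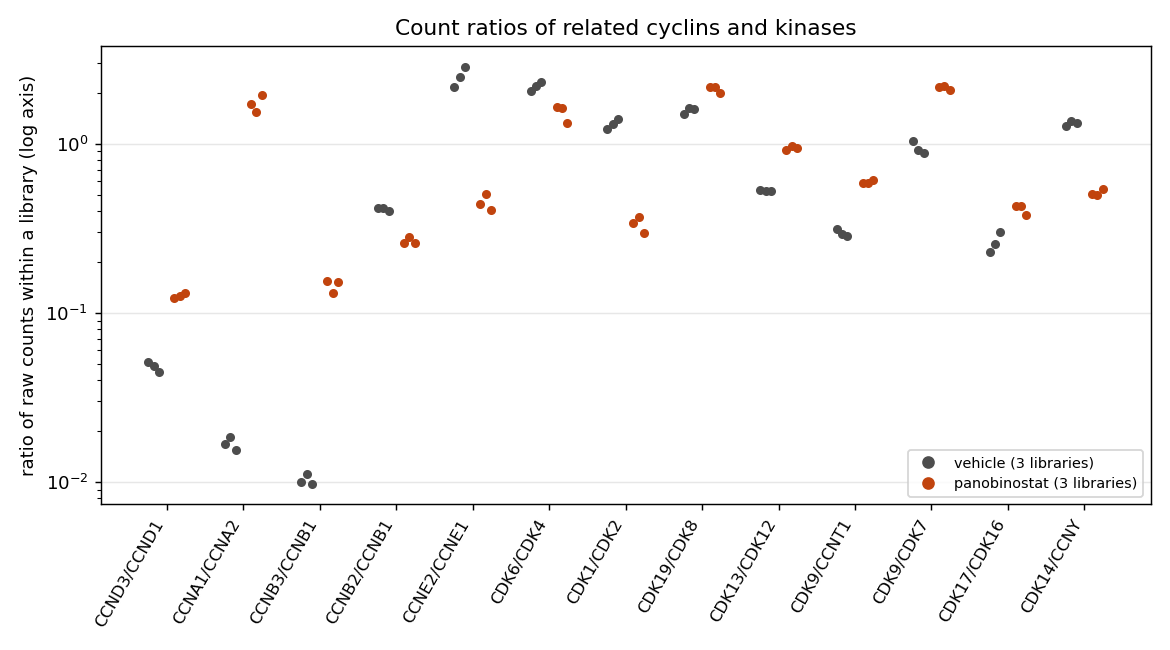
Ratio of raw counts of 13 pairs of members within each library (log axis), vehicle in grey and panobinostat in red, 3 libraries per group. Ratios use no scaling factor. The 3 treated libraries lie apart from the 3 vehicle libraries in each pair, CCNA1 to CCNA2 showing the widest gap (0.0155 to 0.0184 against 1.54 to 1.93). The pairs were chosen after the values were seen, and the levels of 83.4% of all single genes tested did not overlap either.

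Promoter sequence was compared because the 5 falling S, G2 and mitosis members moved together. Many genes of that phase carry a CCAAT box, bound by NF-Y, followed by a cell cycle homology region (CHR), bound by the MuvB complex with its partners B-MYB and FOXM1 or, in resting cells, with p130 and E2F4. RefSeq promoter windows of 300 bases (250 before and 50 after the start, GRCh38.p14) matched 42 of the 46 members. Both strands were searched for CCAAT and for a CHR, written as TTTGAA, as the variant TTCGAA, as the variant TTTAAA or as the variant CTTGAA. Some of these forms can share an end base with the CCAAT box, although not at the spacing counted here. A CCAAT box with a CHR form starting 20 to 40 bases downstream was found in a window of each of CCNA2, CCNB1, CCNB2, CCNF and CDK1. The spacing from first base to first base was 28 bases in CCNA2, 25 in CCNB1, 25 in CCNB2, 21 in CCNF and 33 in CDK1. A gene can have several windows, and the 16 of cell cycle members come from 12 of that class's 16 genes. CCND1, CCND2, CCNE2 and CDK2 have none in the table. The arrangement is in 5 of 16 windows of cell cycle members, 0 of 21 of transcriptional members, 0 of 24 of other members and 1.61% of the 35116 windows in the table. Its 20 to 40 base range was set after these windows had been read, so the shares are a description.

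The 130 bases before the start are shown for these 5 promoters and for those of CCNA1 and CCNB3, which rose, 5′ to 3′ on the strand of the gene with each CCAAT box and CHR form, in either orientation, in capitals. The window of CCNA2 is chr4:121823884-121824013 (- strand), that of CCNB1 chr5:69167020-69167149 (+ strand), that of CCNB2 chr15:59105016-59105145 (+ strand) and that of CCNF chr16:2429317-2429446 (+ strand). That of CDK1, at its downstream start, is chr10:60778348-60778477 (+ strand). Those of CCNA1 and CCNB3 are chr13:36431825-36431954 (+ strand) and chrX:50204635-50204764 (+ strand).
CCNA2: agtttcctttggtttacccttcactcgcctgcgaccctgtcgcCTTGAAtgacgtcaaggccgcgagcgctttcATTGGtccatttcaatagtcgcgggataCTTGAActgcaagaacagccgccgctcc
CCNB1: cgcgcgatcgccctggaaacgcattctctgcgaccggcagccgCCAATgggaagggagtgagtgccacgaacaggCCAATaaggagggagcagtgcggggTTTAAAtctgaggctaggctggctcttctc
CCNB2: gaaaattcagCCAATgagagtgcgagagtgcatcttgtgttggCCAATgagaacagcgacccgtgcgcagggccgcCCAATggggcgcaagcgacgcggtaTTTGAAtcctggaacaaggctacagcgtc
CCNF: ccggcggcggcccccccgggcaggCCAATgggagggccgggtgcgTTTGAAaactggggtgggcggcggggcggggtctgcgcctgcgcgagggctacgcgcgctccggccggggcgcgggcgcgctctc
CDK1: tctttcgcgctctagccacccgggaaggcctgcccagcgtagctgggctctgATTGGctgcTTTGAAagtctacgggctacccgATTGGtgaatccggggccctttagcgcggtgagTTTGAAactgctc
CCNA1: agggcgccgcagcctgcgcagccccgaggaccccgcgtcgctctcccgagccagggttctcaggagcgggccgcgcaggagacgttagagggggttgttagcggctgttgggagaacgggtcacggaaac
CCNB3: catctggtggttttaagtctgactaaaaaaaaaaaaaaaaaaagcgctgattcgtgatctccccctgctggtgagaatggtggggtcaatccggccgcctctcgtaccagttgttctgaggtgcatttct

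In CCNA2, CCNB1 and CCNB2 the CHR form of the pair begins 28, 30 and 29 bases before the start, and in CDK1 13 bases before it. CCNF holds its pair farther upstream, with the CHR form 85 bases before the start. The windows of CCNA1 and CCNB3 hold none of these letters. Counted whether or not the other was present, a CHR form was in 7 of 10 windows of falling cell cycle members and in 32.2% of all windows. A CCAAT box was in 6 of 10 and 34.6%. The 5 windows with the pair are part of both counts. A match of letters is a description of the sequence and not a bound site.

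Transcriptional members changed by less than 2-fold throughout. In P-TEFb, which releases paused polymerase, the kinase and its cyclins went opposite ways. CDK9 was 59.3, 56.4 and 55.7 CPM in vehicle and 97.8, 98.3 and 97.2 CPM with panobinostat, a 1.71-fold rise (log2 change 0.77 ± 0.04, edgeR adjusted p = 2.31e-11), the largest in the class. CCNT1 (cyclin T1) was 190, 194 and 196 CPM in vehicle and 168, 167 and 159 CPM with panobinostat, a log2 change of -0.23 ± 0.04. CCNT2 was 27.4, 27.4 and 35.6 CPM in vehicle, replicate 3 being high, and 21.3, 23.8 and 20.05 CPM with panobinostat, a log2 change of -0.47 ± 0.10. The CDK9 to CCNT1 count ratio went from 0.284 to 0.312 in vehicle to 0.584 to 0.610 with panobinostat, without overlap.

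**Figure D5:**
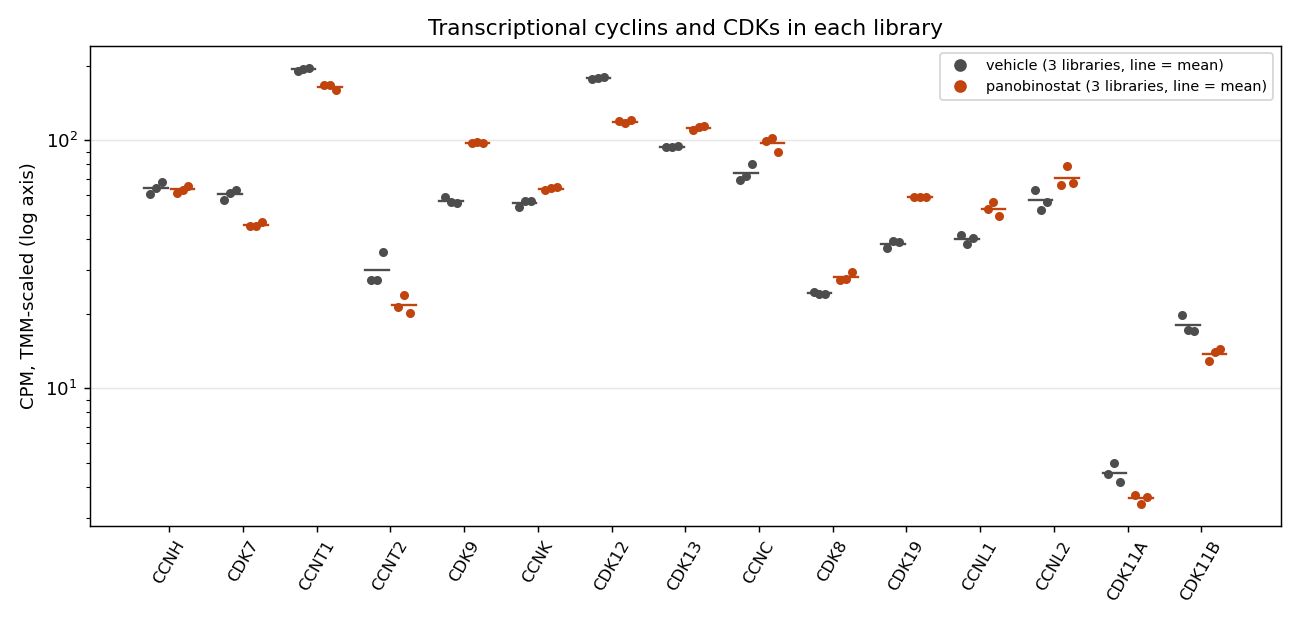
Level of each transcriptional member in every library (CPM, log axis), vehicle in grey and panobinostat in red, with lines at the group means of 3 libraries. CDK9 and CDK19 show the widest gaps upward and CDK12 the widest downward, and CCNH overlaps.

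All 3 family members of the Mediator kinase module (CDK8, CDK19 and CCNC) rose, against 41.8% of all genes tested. The module's other subunits are given with the partners of the transcriptional kinases. CDK19 was 36.9, 39.2 and 38.8 CPM in vehicle and 59.0, 59.2 and 59.0 CPM with panobinostat, a 1.54-fold rise (log2 change 0.63 ± 0.05, edgeR adjusted p = 1.52e-09). Its paralog CDK8 was 24.5, 24.1 and 24.1 CPM in vehicle and 27.3, 27.5 and 29.4 CPM with panobinostat, a 1.16-fold rise. CCNC (cyclin C), the partner of both, rose 1.32-fold from 73.8 ± 5.66 to 97.3 ± 6.59 CPM (SD, n = 3). The CDK19 to CDK8 count ratio was 1.5 to 1.63 in vehicle and 2.0 to 2.16 with panobinostat.

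Paralogs CDK12 and CDK13, kinases of the polymerase tail, moved apart. CDK12 was 176, 178 and 180 CPM in vehicle and 120, 117 and 120 CPM with panobinostat, a 1.5-fold fall (log2 change -0.58 ± 0.04, edgeR adjusted p = 1.26e-10). CDK13 was 94.1, 93.8 and 95 CPM in vehicle and 110, 113 and 114 CPM with panobinostat, a 1.19-fold rise (log2 change 0.25 ± 0.04). There were 0.527 to 0.534 CDK13 counts per CDK12 count in vehicle and 0.920 to 0.964 with panobinostat. Their partner CCNK rose 1.14-fold, from 56.0 ± 1.86 to 63.9 ± 0.79 CPM. Exons of CCNK share 76.6% of their length with CCDC85C on the opposite strand, whose log2 difference of -0.15 did not pass.

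In TFIIH, CDK7 was 57.5, 61.3 and 63.0 CPM in vehicle and 45.0, 45.0 and 47.0 CPM with panobinostat, a 1.33-fold fall (log2 change -0.41 ± 0.05). CCNH (cyclin H) overlapped between groups at 64.4 ± 3.51 and 63.4 ± 1.98 CPM, its log2 difference of -0.02 ± 0.05 turning above 0 with upper quartile scaling (0.10), with the 5 CPM filter (0.071) and without vehicle replicate 3 (0.00031). Of the genes tied to splicing, CCNL1 (cyclin L1) rose 1.32-fold. CCNL2 was 63.3, 52.2 and 56.3 CPM in vehicle and 66.1, 78.7 and 67.1 CPM with panobinostat, a 1.23-fold rise that did not pass without vehicle replicate 3 (log2 0.27). Their kinases CDK11A and CDK11B fell 1.27-fold and 1.3-fold. These are near-identical copies whose reads can be split between them, and CDK11A did not pass with upper quartile scaling (-0.22). Summed as 1 gene they fell, with a log2 change of -0.38 ± 0.07. In the annotation exons of CDK11A also share 85.9% of their length with AL031282.2 on the same strand. Those of CCNH share 19.3% with AC018754.1 on the opposite strand. Neither of these 2 names is among the genes counted.

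Among cyclins of types G, I, J and O 5 of 5 tested fell, against 41.0% of all genes tested. CCNG1 and CCNG2, cyclins G induced by stress signals, fell 1.56-fold from 250.3 ± 14.4 to 160 ± 8.24 CPM and 1.65-fold from 54.5 ± 4.98 to 33.0 ± 2.45 CPM. CCNJ fell 1.77-fold from 19.2 ± 0.26 to 10.8 ± 0.23 CPM. CCNO, a cyclin-family protein of multiciliated cells, fell 2.15-fold from 5.05 ± 0.58 to 2.34 ± 0.43 CPM. CCNI (cyclin I) fell 1.07-fold, which no longer passed under upper quartile scaling, where it turned to 0.018, with the 5 CPM filter (-0.0074), with a replicate block (-0.10), with DESeq2 (-0.084) and without panobinostat replicate 1 (-0.099) or 2 (-0.090). CCNI2 had 1 to 6 counts per library and was not tested.

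Cyclin Y anchors its kinases at the cell membrane, and its main partner CDK14 was the member of the other class that fell most. CDK14 was 99.7, 104 and 103 CPM in vehicle and 34.8, 34.9 and 36.4 CPM with panobinostat, a 2.89-fold fall (log2 change -1.53 ± 0.05, edgeR adjusted p = 4.31e-15). CCNY fell 1.12-fold, from 77.6 ± 1.23 to 69.0 ± 1.38 CPM, which no longer passed under upper quartile scaling (-0.049) or the 5 CPM filter (-0.075). CDK14 counts per CCNY count were 1.27 to 1.36 in vehicle and 0.495 to 0.537 with panobinostat. The close relative CDK15 had 1 count in each vehicle library and 19, 16 and 15 with panobinostat, a ratio of 17.7 (95% interval 5.73 to 88.9, counting error only). CDK15 too was tested only through its treated libraries.

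Kinases of the PCTAIRE group, CDK16, CDK17 and CDK18, rose. CDK17 was 39.8, 42.8 and 47.6 CPM in vehicle and 77.7, 77.5 and 69.0 CPM with panobinostat, a 1.72-fold rise (log2 change 0.78 ± 0.06, edgeR adjusted p = 1.46e-08). CDK18 rose 1.248-fold from 30.7 ± 1.36 to 38.3 ± 1.17 CPM. CDK16 rose 1.09-fold, which no longer passed with no filter on low counts (0.076) or without vehicle replicate 2 (0.10) or 3 (0.068).

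CDK5, the kinase of postmitotic neurons, was 35.4, 32.8 and 31.8 CPM in vehicle and 35.3, 34.7 and 38.0 CPM with panobinostat. The groups overlapped and the log2 difference of 0.11 ± 0.06 did not pass, although it passed with upper quartile scaling (0.23), with the 5 CPM filter (0.20) and without vehicle replicate 1 (0.14). Exons of CDK5 share 18.1% of their length with SLC4A2 on the opposite strand, whose count rose by 0.61 on the log2 scale. The activators of CDK5 moved apart, CDK5R1 (p35) falling from 11.7 ± 0.63 to 6.25 ± 0.11 CPM and CDK5R2 (p39) rising from 0.333 ± 0.090 to 7.67 ± 0.65 CPM. With 14, 14 and 9 counts in vehicle, CDK5R2 passed the low-count filter only through the treated libraries, so the filter favoured a rise. CDK10 fell 1.51-fold, and CDK20 1.18-fold, the latter no longer passing under upper quartile scaling (-0.11), the 5 CPM filter (-0.14) or DESeq2 (-0.22), nor without replicate 2 of vehicle (-0.22) or replicate 3 of panobinostat (-0.16).

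Of 10 CDK phosphatases, inhibitory kinases and binding subunits, 8 fell and 2 rose, with a median log2 change of -0.91. For this and the lists that follow the background is 41.0% of all genes lower and 41.8% higher, with a median of 0.01. The 10 include MNAT1, which serves CDK7, and the CDK5 activators CDK5R1 and CDK5R2, described above. CDK5R2, which passed the filter only through the treated libraries, is among the 2 rises. CDC25A, a phosphatase that activates CDK2 and CDK1, fell 8.0-fold from 42.2 ± 1.249 to 5.28 ± 0.51 CPM. CDC25B, the paralog that acts at mitotic entry, rose from 178 ± 8.97 to 545 ± 7.33 CPM, and CDC25C fell from 20.9 ± 0.60 to 5.92 ± 0.07 CPM. WEE1 and PKMYT1, which inhibit CDK1, fell 1.89-fold and 4.06-fold. CKS1B, a small CDK-binding subunit, fell from 37.2 ± 1.19 to 13.5 ± 0.09 CPM, and CKS2 by 0.62 on the log2 scale. MNAT1, the assembly factor of CDK7 and cyclin H, fell by 0.40 on the log2 scale. Of 7 tested genes with a CDK inhibitor symbol (CDKN), grouped by name and not by shown activity, 2 (CDKN1A and CDKN2D) rose and 4 fell. Among those that fell, CDKN1C (p57) changed by -4.25 on the log2 scale, CDKN3 fell 1.80-fold and CDKN2C (p18) fell 1.38-fold. The fourth, CDKN1B (p27), had a log2 change of -0.15, which no longer passed under upper quartile scaling (-0.029), the 5 CPM filter (-0.055), DESeq2 (-0.13) or a replicate block (-0.15), nor without vehicle replicate 3 (-0.11) or panobinostat replicate 3 (-0.10). CDKN2A differed by -0.28 on the log2 scale and did not pass, although it passed with no filter on low counts (-0.33) and without vehicle replicate 1 (-0.40).

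Of 17 genes of the retinoblastoma and E2F pathway, on which D-type cyclin kinases act, 13 fell and 3 rose, with a median log2 change of -1.02. TFDP1, the E2F partner, fell from 261 ± 5.45 to 103 ± 0.99 CPM, and E2F3 fell 2.65-fold. MYBL2 (B-MYB) and FOXM1, which work with MuvB at CHR sites, fell 3.75-fold and 5.37-fold. LIN9, a MuvB subunit, fell from 26.7 ± 1.58 to 11.1 ± 1.246 CPM. Of the resting-cell partners of MuvB, RBL2 (p130) did not pass (log2 difference -0.007) and E2F4 had a log2 change of -0.18. RB1 rose from 182 ± 13.2 to 241 ± 11.8 CPM and E2F6, a repressor of the family, rose 1.21-fold. LIN54, the MuvB subunit that contacts the CHR, rose 1.10-fold, which no longer passed with no filter (0.098), with a replicate block (0.14), or without vehicle replicate 1 (0.087) or 2 (0.11) or panobinostat replicate 1 (0.13) or 2 (0.096).

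Among 12 genes that direct cyclins and their regulators to degradation 6 fell and 2 rose (median -0.15), and with upper quartile scaling 5 fell and 4 rose. SKP2, which targets p27, fell from 93.8 ± 0.53 to 25.5 ± 1.23 CPM. UBE2C, the ubiquitin-conjugating enzyme of the anaphase-promoting complex, fell from 112 ± 5.87 to 33.9 ± 1.77 CPM, and FBXO5, an inhibitor of that complex, from 42.4 ± 2.42 to 15.8 ± 0.95 CPM. CUL1, the scaffold of SCF ligases, fell 1.95-fold and FBXO4 fell 2.41-fold. UBE2S fell 1.16-fold, which no longer passed under upper quartile scaling (-0.091) or the 5 CPM filter (-0.12). FBXO31, which targets cyclin D1, rose from 30.0 ± 1.63 to 46.9 ± 0.31 CPM, and FZR1 rose 1.23-fold. CDC20, an activator of the anaphase-promoting complex, was 174 ± 5.33 and 165 ± 6.70 CPM and did not pass (log2 difference -0.079), the value turning to 0.041 under upper quartile scaling and to 0.015 under the 5 CPM filter. It passed as a fall with no filter (-0.12), without vehicle replicate 3 (-0.12) and without panobinostat replicate 3 (-0.11).

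Partners of the transcriptional kinases were divided, with 4 of 14 rising and 5 falling (median -0.04). HEXIM1, which holds P-TEFb inactive, rose 1.79-fold from 102 ± 1.73 to 183 ± 6.54 CPM, while MEPCE, the capping enzyme of the 7SK RNA that scaffolds this complex, fell from 93.2 ± 3.995 to 31.5 ± 1.02 CPM. AFF1 and MLLT3, of the super elongation complex, rose 2.30-fold and 2.03-fold. In the Mediator kinase module, MED12 fell from 123 ± 4.86 to 72.6 ± 0.53 CPM and MED13L rose from 151 ± 2.88 to 259 ± 6.03 CPM. The TFIIH subunits ERCC3 and GTF2H1 fell 1.39-fold and 1.27-fold.

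Of 9 tested cyclin and kinase relatives whose symbols lie outside the family rule, 6 rose and 3 fell (median 0.23), or 5 and 1 with the 5 CPM filter, under which CNTD1, CDKL1 and CDKL3 were not tested. CCNYL1, a paralog of cyclin Y, rose 2.47-fold from 24.4 ± 1.10 to 60.1 ± 0.79 CPM, whereas FAM58A, the cyclin partner of CDK10, fell from 11.9 ± 0.33 to 6.17 ± 0.34 CPM. CDKL3, a CDK-like kinase, rose 1.88-fold, and CDKL1, another, fell by 0.62 on the log2 scale. CABLES1, which links CDKs to other kinases, rose 1.88-fold, CCNJL rose 1.13-fold and CNTD1, from 0.643 ± 0.051 to 0.182 ± 0.030 CPM, fell. CNTD1, among the 3 falls, had 6, 6 and 7 counts with panobinostat. It entered the test only through the vehicle libraries and so had to differ. CABLES2 rose 1.17-fold, which no longer passed with no filter (0.18), without vehicle replicate 2 (0.14) or without panobinostat replicate 1 (0.21) or 2 (0.19).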

How the data were processed

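RNA of 6 A375 libraries, 3 per group, was analysed from the authors' deposited table of counts, which holds unnormalized whole read numbers for each symbol in 1 column per library. Columns were matched to samples by title and groups taken from the dose in the labels. The deposited table's name mentions STAR. Version, genome build, annotation and strand setting were not given in any source used here.

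Of 25435 lines, 92 were spike-in controls with 0 counts and were left out. Genes were kept with filterByExpr of edgeR 4.0.16 (minimum count 10), scaled by TMM and tested with the quasi-likelihood F test (glmQLFit, robust) on group alone, with Benjamini-Hochberg adjustment over all 15499 genes tested, in R 4.3.3. CPM use the TMM-scaled library sizes, and 3 counts correspond to 0.0774 to 0.0928 CPM. Counting intervals and floors cover counting error only. Libraries of a group differed by more than sampling noise (chi-square per degree of freedom 1.90 to 9.14). The steps were also run on simulated counts in which few genes changed, whereas 82.8% of genes tested passed here. That run therefore cannot tell how the scaling behaves in these data. The alternatives tried were scaling by RLE, by upper quartile or by library size alone, testing without a filter or at 5 CPM or more in 3 libraries, DESeq2 1.42.0, limma-voom (limma 3.58.1), a test against a 2-fold change, a replicate block, each library left out, other class assignments, and CDK11A and CDK11B summed.

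The genes named were every member and, from each pathway list, up to 4 called genes per direction by smallest adjusted p, with all called genes in lists of 12 or fewer. LIN9, RBL2, E2F4, CDC20 and CDKN2A lie outside it and were chosen after their values were seen. Some items that enter the list counts are not reported here by name. The members, lists and classes were chosen with earlier results of these data known, and the 14 pairs and the sequence motifs after the values were seen. Pair ratios were not tested. For 3 against 3 libraries an exact permutation test cannot go below p = 0.1. Exon lengths and overlaps came from GENCODE 29 and promoters from RefSeq. Plots used matplotlib 3.10.9 in Python 3.11.15.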

Additional observations from a re-analysis of the deposited data

How the results depend on the processing

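Apart from the test against a 2-fold change, there were 14 alternatives of scaling, filter, tool, block and left-out library. Of 40 members run in all 14, 31 kept their direction and their side of the threshold. CCND2, CCNO, CDK11A and CDK15 were not tested under the 5 CPM filter, and 3 of these 4 kept both in the other 13. Of those 3, CCND2 and CDK15 had to differ, so their steadiness carries no weight. The exceptions were CCND3, CCNH, CCNI, CCNY, CCNL2, CDK2, CDK5, CDK11A, CDK16 and CDK20, of which CDK11A lay farthest from 0, at -0.34. Upper quartile scaling turned CCND3 to 0.053, CCNH to 0.10, CCNI to 0.018 and CDC20 to 0.041. The 5 CPM filter turned CCND3 to 0.027, CCNH to 0.071 and CDC20 to 0.015. With each library left out CCNH ran from -0.078 to 0.00031. Of 46 named pathway genes run in all 14, 41 kept direction and side, RBL2 and E2F4 not being followed there. CDKL1, CDKL3, CDKN2A and CNTD1 were not tested under the 5 CPM filter, and 3 of these 4 kept both elsewhere. Of those 3, CNTD1 had to differ, so its steadiness carries no weight. Upper quartile scaling moved the median of all genes tested from 0.01 to 0.13, put 57.3% of calls higher against 50.5%, and moved the class medians to -0.99 (cell cycle), 0.31 (transcriptional) and -0.081 (other). The transcriptional median was 0.15 with no filter and 0.30 with the 5 CPM filter, under which the other members had a median of -0.11 and 5 falls among 12 tested. A test against a 2-fold change, which asks more by construction, called 2417 genes higher and 1439 lower, 0 and 0 transcriptional members (edgeR's glmTreat, 0 at an unadjusted p under 0.05) and 1 and 1 other members. It kept 8 falls and 3 rises of cell cycle members. The rises under this test include CCND2 and CDK15, which were tested only through the treated libraries and so had to differ. With CCNF and CDK3 out of the cell cycle class and CDK10 in the transcriptional class the medians were -0.85 and 0.084. Leaving out each library in turn gave cell cycle medians of -1.17 to -1.06, transcriptional medians of 0.15 to 0.20 and other medians of -0.24 to -0.16, with 11 to 12 cell cycle falls, 7 to 8 transcriptional rises, 8 to 9 other falls and 3 to 5 other rises. All-gene counts then ran from 6327 to 6547 higher and 6185 to 6507 lower. The causes of these shifts were not tested.

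Same-numbered libraries of the groups did not deviate together (correlations of deviations -0.14, -0.11 and -0.27), so the numbers were not taken as pairs. With a replicate block 6259 genes were higher and 6150 lower, and cell cycle members kept 11 falls and 3 rises with a median of -1.11. CCND2, which had to differ, is among those 3 rises. CCND2, CDK3, CDK15 and CCNI2 had 6 counts or fewer in each vehicle library, so their vehicle levels are imprecise at this depth.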
